A study of Mus musculus with 2 samples.

Results

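Pdcd1-positive CD8 T cells of mouse optic glioma were examined in 2 single-cell RNA libraries of whole optic nerve. A cell was taken as a member when it held at least 2 UMIs (unique molecular identifiers, each standing for 1 counted RNA molecule) of Cd3d, Cd3e and Cd3g together, at least 2 of Cd8a and Cd8b1 together, none of Cd4 and at least 1 of Pdcd1. By this rule 1409 of the 25652 cells kept after quality filters were members, which is 5.49% of them. There were 288 in library C-ON, whose sample is titled as control, and 1121 in library FMC_new, whose sample carries the title FMC new. What "control" and "FMC" stand for is not given in the sources used here. Both libraries came from Nf1 OPG mice at 12 weeks of age, and nerves of 10 mice were pooled for each. These mice carry 1 floxed and 1 mutant Nf1 allele together with a GFAP-Cre transgene, so that the remaining Nf1 copy is lost from glial cells and their progenitors while all other cells, T cells included, keep 1 working copy. No library of another genotype was analysed here, and with 1 library for each title no test between the titles can be made.

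Pdcd1 encodes PD-1, an inhibitory receptor that T cells switch on after their antigen receptor is engaged and that dampens receptor signalling when bound by its ligands. In chronic infection and in tumors, CD8 T cells that keep PD-1 often carry other inhibitory receptors as well, together with the transcription factor TOX, a state known as exhaustion. In the Nf1 optic glioma model, CD8 T cells have been placed between neurons and tumor-associated monocytes: neuronal midkine acts on T cells, T cells release Ccl4, and monocytes then release Ccl5, which sustains the tumor cells.

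The libraries differed in depth and in the RNA of other cells. Of 10845 and 21341 barcodes in C-ON and FMC_new, 8834 and 16818 were kept, with medians of 6810.5 and 4676 UMIs. The libraries shared 188 barcode sequences among kept cells and 0 among the members. Members held a median of 4484.5 and 4022 UMIs, against 3548 and 3592 in Pdcd1-negative CD8 T cells, so that members were the deeper cells in both libraries. RNA of other cell types was found in members as well as in Pdcd1-negative cells. The 8 oligodendrocyte markers summed to 11265 and 5939 CPM (the usual depth-scaled unit, here the UMIs of a gene or list over all UMIs of the population in that library) in members and to 16315 and 7016 CPM in Pdcd1-negative CD8 T cells. The 4 pituitary hormone genes had 10 UMIs in all members of C-ON together and stood at 6680 CPM in those of FMC_new, and the 4 plasma cell genes stood at 3653 and 3418 CPM in members. No gene of the oligodendrocyte, plasma cell or myeloid lists was called in the comparison of Pdcd1-positive with Pdcd1-negative CD8 T cells described below by edgeR or by DESeq2, with 2 oligodendrocyte, 1 plasma cell and 0 myeloid genes at an unadjusted p under 0.05. Of 5 tested regulatory T cell genes edgeR called 2 higher, with a median log2 fold change of 2.07, and DESeq2 called 4. Of 6 genes of natural killer and innate lymphoid cells edgeR called 1 higher and 1 lower, and DESeq2 called 2. In the remaining lists of other cell types, edgeR called 1 of 2 tested endothelial and stromal genes (Dcn) and 1 of 4 pituitary hormone genes (Prl) lower. DESeq2 called neither Dcn nor Prl. The antibody gene Ighg1 was called lower by edgeR too, and not by DESeq2. No doublet caller was run.

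The members carried the T cell genes that the rule did not use. Lck, the kinase that starts T cell receptor signalling, had a UMI in 77.4% of members in C-ON and 80.2% in FMC_new, and the receptor constant gene Trac in 52.1% and 55.0%. In oligodendrocytes, taken as cells with marker genes and no UMI of Ptprc or Cd3, Lck had a UMI in 0.403% and 1.41% of cells, and Trac in 0.228% and 0.728%. Cd3e, Cd8a and Cd8b1, which the rule uses, had a UMI in at least 93.1% of members. Foxp3, the factor of regulatory T cells, was found in 1.04% and 2.14% of members, and the gamma-delta receptor gene Trdc in 0 of 288 members, which allows a share of up to 1.04%, and in 0.178% of members of FMC_new. Most members lay well inside the limits of the rule, with a median of 16 Cd3 and 8 Cd8 UMIs in each library. Members with exactly 2 Cd8 UMIs numbered 19 and 85, while 10 and 94 cells failed the rule by having only 1 and 7 and 46 failed it only by 1 Cd4 UMI.

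Pdcd1 was found in 56.7% of CD8 T cells in C-ON (288 of 508, 95% exact binomial interval 52.3 to 61.1%) and in 60.6% in FMC_new (1121 of 1849, 58.4 to 62.9%). These intervals cover counting error only, and they overlap. Members had a median of 4 Pdcd1 UMIs in C-ON and 3 in FMC_new, with a maximum of 17 and 21. At the edge of the rule, 54 members (18.8%) in C-ON and 268 (23.9%) in FMC_new held exactly 1 Pdcd1 UMI, and 51.4% and 46.0% held 4 or more. Among other cells Pdcd1 had a UMI in 37.1% and 43.0% of conventional CD4 T cells, in 36.6% and 39.9% of regulatory T cells and in 13.2% and 6.07% of natural killer cells. In oligodendrocytes, which should lack the gene, the share was 0.158% and 0.728% at median depths of 7715 and 7339 UMIs. When every cell was thinned to 1000 UMIs, Pdcd1 was seen in 34.8% of CD8 T cells, compared with 59.8% at full depth over both libraries.

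Pdcd1 lies at chr1:94038305-94052553 on the minus strand (GRCm38). The factor NFAT, activated by calcium after T cell receptor engagement, binds the core letters GGAAA, and the promoter of Pdcd1 is shown beside those of Tnfrsf9 and Xcl1, which were both higher in members. No motif was searched beyond these letters and those of AP-1. Each sequence is the 250 bases before the RefSeq start (GRCm38.p6), printed 5′ to 3′ on the gene's strand, with GGAAA or its reverse complement TTTCC in capitals.
Pdcd1, chr1:94052554-94052803, minus strand: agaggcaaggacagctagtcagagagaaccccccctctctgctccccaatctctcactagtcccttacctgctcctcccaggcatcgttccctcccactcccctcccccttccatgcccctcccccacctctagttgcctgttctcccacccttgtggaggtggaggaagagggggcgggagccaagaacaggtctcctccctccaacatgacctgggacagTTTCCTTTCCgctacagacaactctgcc
Tnfrsf9, chr4:150919905-150920154, plus strand: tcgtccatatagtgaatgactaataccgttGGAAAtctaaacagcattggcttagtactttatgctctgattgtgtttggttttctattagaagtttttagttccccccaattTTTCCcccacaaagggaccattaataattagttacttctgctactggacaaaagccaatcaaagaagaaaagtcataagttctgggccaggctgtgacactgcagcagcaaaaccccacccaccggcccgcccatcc
Xcl1, chr1:164935523-164935772, minus strand: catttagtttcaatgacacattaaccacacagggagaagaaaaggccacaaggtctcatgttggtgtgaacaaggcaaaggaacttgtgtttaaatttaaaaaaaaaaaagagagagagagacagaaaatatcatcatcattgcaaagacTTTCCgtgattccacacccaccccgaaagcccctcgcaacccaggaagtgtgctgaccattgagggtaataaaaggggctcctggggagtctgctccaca
The promoter of Pdcd1 held 2 matches in immediate succession, 28 and 23 bases before the start. That of Tnfrsf9 held 2, at 220 and 137 bases, and that of Xcl1 held 1, at 100 bases. The RefSeq start used for Tnfrsf9 lies inside the gene as GENCODE draws it (chr4:150914562-150946102, plus strand). The letters are common: 55.6% of 27025 such promoters held GGAAA on either strand, compared with 52.6% of the 196 promoters of genes higher in members and 58.1% of the 117 of genes lower in them. The AP-1 motif TGANTCA was in 6.87% of all promoters, in 4.06% of those of the genes tested, in 6.63% of those of higher genes and in 4.27% of those of lower genes. A match is a match of letters and was not tested as a binding site.

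To ask what accompanied Pdcd1 in CD8 T cells, UMIs were summed for each library over members and over Pdcd1-negative CD8 T cells, and the sums were compared with edgeR's quasi-likelihood test with library as a block. The inhibitory receptors Lag3, Tigit, Havcr2 and Ctla4, the exhaustion factor Tox and the costimulatory receptor Tnfrsf9 were higher in members of both libraries, and the progenitor genes Tcf7 and Lef1 were lower. Of the genes of killing, perforin (Prf1) was higher and granzyme B (Gzmb) was not called. Of 11277 genes tested, 417 (3.7%) passed an adjusted p of 0.05, of which 258 were higher (2.29%) and 159 lower (1.41%) in members, and 407 had the same sign in both libraries. The median log2 fold change over all genes was -0.01. The 7 genes that define the members were left out of the test. There are only 2 libraries, and the block removes the shift that all populations of a library share. The p-values thus rest on how unevenly the library difference varied across the populations fitted, including those outside this comparison. They do not measure the full spread between pools of mice, and without the block 53 genes were called.

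Inhibitory receptors were mostly higher in members. Of 14 checkpoint receptors tested, 9 were higher in members and 0 lower, with a median log2 fold change of 1.30. Lag3, which binds MHC class II and restrains T cell activation (chr6:124904361-124911705, minus strand), stood at 333 and 289 CPM in members of C-ON and FMC_new and at 42.8 and 42.5 CPM in Pdcd1-negative cells. The groups did not overlap, and the log2 fold change was 2.77 (SE 0.20, edgeR adjusted p = 1.45e-07). Lag3 had a UMI in 65.3% and 56.3% of members and in 10.9% and 11.5% of Pdcd1-negative cells, and after every cell was thinned to 1000 UMIs in 24.4% and 24.7% against 4.57% and 4.03%. Tigit, a receptor for the nectin family ligand CD155, stood at 564 and 552 CPM in members and at 143 and 168 CPM in Pdcd1-negative cells, a log2 fold change of 1.77 (SE 0.16, edgeR adjusted p = 3.21e-07). Havcr2, which encodes TIM-3 and marks terminally exhausted cells, stood at 70.8 and 64.0 CPM against 11.7 and 18.6 CPM, a log2 fold change of 1.97 (SE 0.30, edgeR adjusted p = 3.35e-04). Ctla4, which competes with CD28 for its ligands, stood at 423 and 471 CPM against 144 and 183 CPM.

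The remaining calls of the list were Cd200r1 (log2 fold change 2.82), Cd200 (2.03), Cd244a (1.66), Cd160 (1.23) and Cd101 (1.23). Cd200 and Cd200r1 are a ligand and its inhibitory receptor, and Cd244a is a receptor of the SLAM family. The call of Cd244a was lost in 3 of 10 alternatives, among them DESeq2 and thinning, and that of Cd101 in 2, among them thinning. Entpd1, the ectonucleotidase CD39, was not called (log2 fold change 0.55, edgeR adjusted p = 0.119), nor were Btla (-0.41), Vsir (-0.22), Lilrb4a (0.19) and Cd96 (0.69).

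**Figure D1:**
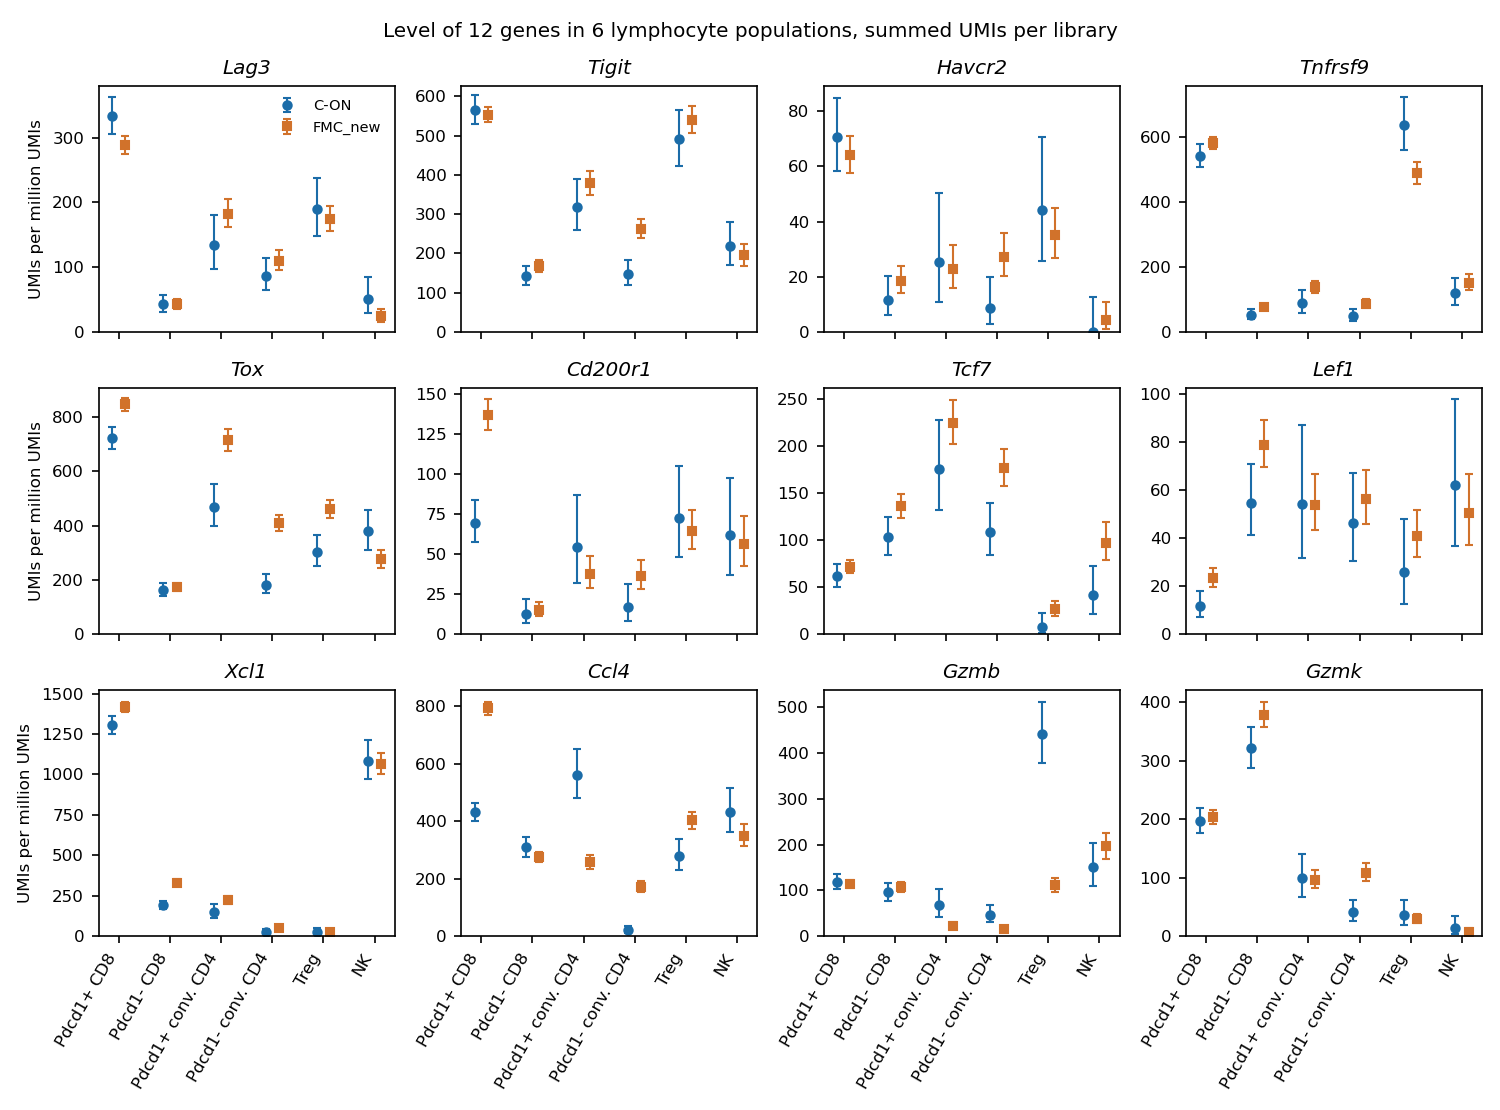
Level of 12 genes in CPM (vertical axes) in 6 cell populations, with 1 point for each library and bars for 95% Poisson intervals that cover counting error only. Lag3 stands at 333 and 289 CPM in members and at 42.8 and 42.5 CPM in Pdcd1-negative CD8 T cells, while Gzmb stands at 119 and 114 CPM against 95.4 and 107 CPM.

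Of 14 transcription factors linked to exhaustion, 7 were higher and 0 lower, with a median log2 fold change of 0.64. Tox, whose product maintains exhausted cells (chr4:6686353-6991557, minus strand), stood at 722 and 846 CPM in members and at 163 and 173 CPM in Pdcd1-negative cells. Each member sum thus lay above each Pdcd1-negative sum, and the log2 fold change was 2.14 (SE 0.30, edgeR adjusted p = 0.00762). Its relative Tox2 stood at 32.9 and 34.1 CPM against 0 and 5.04 CPM. Ikzf2, which encodes Helios, had a log2 fold change of 1.94, the receptor-induced factor Nr4a2 of 1.53, Batf of 1.13, Bhlhe40 of 0.95 and Prdm1, which encodes Blimp-1, of 0.77. The call of Prdm1 was lost in 4 of 10 alternatives, among them DESeq2 and thinning, that of Nr4a2 in 2 and that of Batf in 1. Eomes was not called (log2 fold change -0.28, edgeR adjusted p = 0.792).

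Genes of naive and progenitor T cells went the other way, with 0 of 14 higher, 7 lower and a median log2 fold change of -0.66. Lef1, a partner of beta-catenin in early T cells, stood at 11.6 and 23.2 CPM in members and at 54.5 and 78.8 CPM in Pdcd1-negative cells, a log2 fold change of -1.96 (SE 0.22, edgeR adjusted p = 7.24e-06). Tcf7, which encodes TCF-1 and marks progenitor exhausted cells, stood at 61.6 and 71.6 CPM against 103 and 136 CPM, a log2 fold change of -0.93 (SE 0.20, edgeR adjusted p = 0.00731). Both were thus lower in members, while Tcf7 still had a UMI in 20.1% and 21.1% of members. DESeq2 called 3 genes of the list in place of 7, and the call of Tcf7 was lost with it. Lower too were the egress receptor S1pr1 (-1.48), Satb1 (-0.98), the interleukin 7 receptor Il7r (-0.90) and Foxp1 (-0.54). Of these S1pr1, Satb1 and Foxp1 were not called by DESeq2, and S1pr1 and Foxp1 were not called after thinning or without cycling cells either. Klrg1, a marker of short-lived effector cells, was lower as well, at 4.88 and 2.94 CPM against 15.6 and 12.9 CPM (log2 fold change -2.02).

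**Figure D2:**
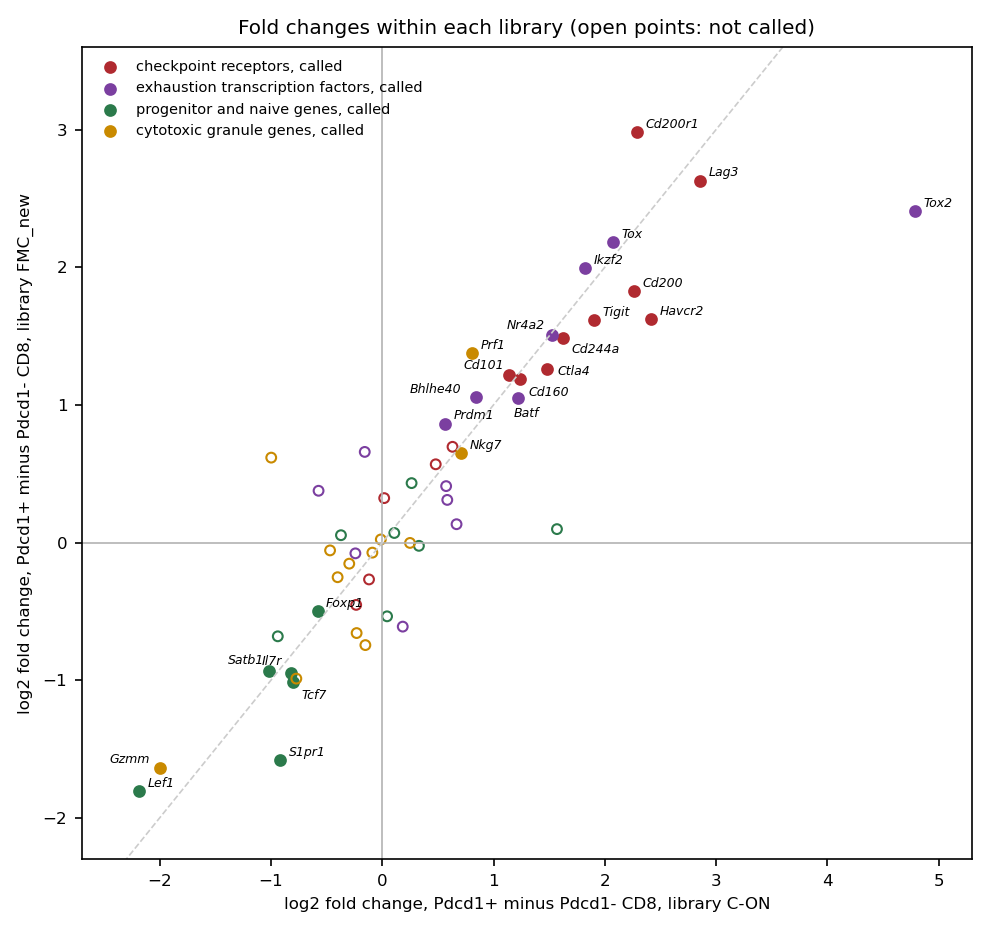
Log2 fold change of members against Pdcd1-negative CD8 T cells within library C-ON (horizontal axis) and within FMC_new (vertical axis), for genes of 4 lists, of which 1 is not shown. Filled points were called by edgeR and named, open points were not called, and the dashed line marks equal values. The called checkpoint receptors and exhaustion factors lie above 0 in both libraries and the called progenitor genes below 0.

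Genes induced by the T cell receptor and those that dampen its signals were called in part. Tnfrsf9, the costimulatory receptor 4-1BB, stood at 543 and 582 CPM in members and at 53.5 and 76.3 CPM in Pdcd1-negative cells, with a UMI in 62.2% and 61.7% of members against 10.0% and 13.6%, or 33.8% and 35.8% against 5.94% and 6.67% at equal depth. Its log2 fold change was 3.03 (SE 0.25, edgeR adjusted p = 4.35e-05). Of 12 genes of receptor signalling, Tnfrsf9, Nr4a2 and Rgs16 (log2 fold change 2.70), a regulator of G protein signalling, were higher and 0 were lower. Of 9 tested feedback genes of the MAPK pathway, which neurofibromin restrains through RAS, 3 were higher and 0 lower: Spry2 (2.22), Dusp4 (2.13) and Spry1 (1.57). None of 14 immediate early and heat shock genes was called in edgeR's or DESeq2's test, with 3 at an unadjusted p under 0.05 in edgeR's and a median log2 fold change of -0.19. Other costimulatory receptors that were higher were Tnfrsf4 (2.09), known as OX40, Tnfrsf18 (1.01), known as GITR, and Tnfrsf1b (0.75), while Cd28 (-0.19) and Icos (-0.04) were not called.

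Cytotoxic genes shifted little and not in 1 direction. Of 13 tested, 2 were higher, 1 was lower and the median log2 fold change was -0.22. Prf1, which encodes the pore-forming perforin, stood at 83.0 and 98.2 CPM in members and at 44.8 and 34.7 CPM in Pdcd1-negative cells, a log2 fold change of 1.17 (SE 0.21, edgeR adjusted p = 0.00125). Nkg7, a granule protein, was higher by 0.68, and Gzmm, at 3.66 and 2.94 CPM against 17.5 and 11.0 CPM, was lower. DESeq2 called Prf1 but not Nkg7, and gave no adjusted p for Gzmm. Gzmb, the main apoptosis-inducing granzyme, stood at 119 and 114 CPM in members and at 95.4 and 107 CPM in Pdcd1-negative cells (log2 fold change 0.08, SE 0.65, edgeR adjusted p = 1). Its standard error leaves a change of either sign possible. Gzmk stood at 196 and 204 CPM in members and at 321 and 379 CPM in Pdcd1-negative cells, and was not called (log2 fold change -0.89, edgeR adjusted p = 0.092).

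Among the chemokines, Xcl1, the attractant of cross-presenting dendritic cells, was the only one of 8 called in edgeR's test. It stood at 1307 and 1419 CPM in members and at 191 and 330 CPM in Pdcd1-negative cells, a log2 fold change of 2.35 (SE 0.18, edgeR adjusted p = 2.32e-07), and the call was lost when members needed at least 2 Pdcd1 UMIs. Ccl4, the T cell signal to monocytes in the model that the study follows, stood at 431 and 792 CPM in members and at 309 and 275 CPM in Pdcd1-negative cells. Both member sums lay above both others, but the difference was not called (log2 fold change 0.94, SE 0.79, edgeR adjusted p = 0.794). Ccl4 had a UMI in 44.1% and 49.5% of members and in 39.5% and 34.3% of Pdcd1-negative cells, or in 22.3% and 28.7% against 22.8% and 14.9% at equal depth. Ccl3, its neighbour on chromosome 11, stood at 188 and 212 CPM against 22.4 and 33.7 CPM, which did not pass either (log2 fold change 2.85, SE 0.58, edgeR adjusted p = 0.0795) but was called by DESeq2 (adjusted p = 2.91e-04). Ccl5 stood at 6479 and 6162 CPM in members and at 4185 and 5195 CPM in Pdcd1-negative cells (log2 fold change 0.37, edgeR adjusted p = 0.819). Its share of cells was nevertheless lower in members, at 83.0% and 83.6% against 90.9% and 89.0%, and at 74.6% and 70.2% against 83.6% and 79.9% at equal depth, so no order was read from it. Ccl2 stood at 1.22 and 23.9 CPM in members and at 166 and 46.0 CPM in Pdcd1-negative cells, and was not called (log2 fold change -3.11, edgeR adjusted p = 0.507).

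Of 15 cytokines tested, 2 were higher and 1 lower: the death ligand Tnfsf10 (1.23), the osteoclast factor Tnfsf11 (1.59) and Il2 (-1.86). Ifng, which encodes interferon gamma, stood at 97.6 and 157 CPM in members and at 145 and 73.1 CPM in Pdcd1-negative cells, so that the groups overlapped (log2 fold change 0.35, edgeR adjusted p = 0.942). Among 12 chemokine receptors 3 were higher, Ccr8 (2.82), Ccr6 (2.04) and Cxcr6 (0.74), which binds the membrane chemokine Cxcl16. The other 3 that were called were lower: Ccr2 (-1.27), Cxcr3 (-1.21), the receptor for interferon-induced chemokines, and Cxcr4 (-1.06). DESeq2 did not call Ccr6 and Cxcr6, and the call of Ccr2 was lost in 3 of 10 alternatives, among them thinning. Cxcr3 stood at 78.1 and 106 CPM in members and at 177 and 224 CPM in Pdcd1-negative cells.

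Genes of tissue residency were called for 4 of 11, all higher: Xcl1, the dioxin receptor Ahr (1.24), Cxcr6 and Rgs2 (0.64). DESeq2 called Xcl1 and Ahr of these. Itgae, the integrin CD103, and Cd69 were not called (-0.34 and -0.65), and the median of the list was -0.04. Of 13 tested interferon-stimulated genes 5 were lower and 0 higher, with a median log2 fold change of -0.82: Rsad2 (-1.60), Usp18 (-1.11), Ifit1 (-0.88), Bst2 (-0.72) and Rtp4 (-0.60). DESeq2 called only 1 of them, Bst2, and the call of Rtp4 was lost in 6 of 10 alternatives. None of 10 genes of MHC class I and II was called in edgeR's or DESeq2's test, nor was any of 14 cell cycle genes, and 0 and 5 were at an unadjusted p under 0.05 in edgeR's. The median of the cell cycle genes was 0.79, and Mki67 stood at 86.6 and 117 CPM in members against 60.4 and 49.5 CPM (edgeR adjusted p = 0.166). The T cell identity genes Thy1 (-0.71), Lat (-0.73) and Skap1 (-0.54) were lower, of 12 listed.

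No midkine receptor was called of 9 tested by edgeR or DESeq2, with 1 at an unadjusted p under 0.05 and a median log2 fold change of -0.19. Members held nucleolin (Ncl) at 319 and 299 CPM and the integrin chain Itga4 at 422 and 487 CPM. The receptors Lrp1 and Ptprz1 were near 0 in members of C-ON, at 0.61 and 1.83 CPM, and stood at 16.4 and 43.7 CPM in FMC_new. Alk had 0 UMIs in members of C-ON, which allows up to 1.83 CPM, and stood at 0.519 CPM in FMC_new.

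The genes with the largest fold changes were mostly not classical exhaustion genes. Gm156, a gene at chr6:129766568-129784270 on the minus strand, which lies between the killer cell lectin-like receptor genes Klri2 and Klra8, stood at 189 and 308 CPM in members and at 13.6 and 12.3 CPM in Pdcd1-negative cells. Its log2 fold change was 4.28 (SE 0.23, edgeR adjusted p = 7.65e-10), and it had a UMI in 29.9% and 34.3% of members against 3.18% and 2.34%, or 14.3% and 20.8% against 1.37% and 1.39% at equal depth. Of 8 tested natural killer receptor genes 3 were higher: Klre1 (1.84) and Klrd1 (1.31), whose products form receptors with other members of the family, and Klra7 with 21 UMIs against 0, at least 3.96-fold higher over both libraries. Klrd1, which encodes CD94, stood at 485 and 595 CPM in members and at 183 and 226 CPM in Pdcd1-negative cells. The direction of Klra7, at so few UMIs, was lost when cells were thinned. Genes of this family are near-identical in part, so reads may be split between copies.

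Other genes with a large log2 fold change belonged to none of the lists. The calcium pump Atp2b2 stood at 61.6 and 82.1 CPM against 1.95 and 4.73 CPM (log2 fold change 4.21, edgeR adjusted p = 2.34e-07). The incretin receptor Glp1r stood at 36.6 and 45.5 CPM against 3.89 and 3.78 CPM (3.38), and the monocarboxylate transporter family gene Slc16a11 at 93.3 and 59.5 CPM against 1.95 and 7.25 CPM (3.57). All 3 were higher in members of both libraries. The rest of the 15 with the largest log2 fold change were Ccdc80, Bdh2, Gm30177, Trpm1, AC149091.1, Kif26b, Susd2, Plscr4, Slc17a6, a vesicular glutamate transporter, and Coch, each with 63 to 203 UMIs in members. Bdh2, at 87 UMIs in members against 2, was 24.6-fold higher with a counting interval of 6.61 to 206. The largest falls among genes named by the same rule included the hormone Avp (10 UMIs against 57), the antibody gene Ighg1 (72 against 131), Krt83, Ifi208, Kcnj8, Rflnb, St8sia1, Esm1, Eya2 and 5 genes described above. The hormone gene Prl, at 0 CPM in C-ON and 1462 against 3001 CPM in FMC_new, and the stromal gene Dcn were called lower too, although Dcn had a log2 fold change of 0.58 in C-ON and of -2.58 in FMC_new. Whether RNA of other cell types had a part in these last calls was not tested.

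Levels of some genes followed the number of Pdcd1 UMIs in a cell. The values are a description, since the number of Pdcd1 UMIs also chose the members and cells with more of them were deeper, with medians of 3548, 3838, 4294.5 and 4983 UMIs in C-ON at 0, 1, 2 to 3 and at least 4 Pdcd1 UMIs. In FMC_new these medians were 3592, 3288.5, 3744 and 4713. Lag3 stood at 42.8, 77.5, 294 and 423 CPM along these classes in C-ON and at 42.5, 182, 244 and 351 CPM in FMC_new. Tox stood at 163, 265, 712 and 851 CPM in C-ON and at 173, 408, 728 and 1070 CPM in FMC_new. Lef1 ran downward, at 54.5, 20.4, 12.3 and 8.81 CPM in C-ON and at 78.8, 46.2, 27.4 and 12.5 CPM in FMC_new. For Lag3, Tox and Lef1, members with a single Pdcd1 UMI thus lay between Pdcd1-negative cells and members with more. Other genes did not share this in C-ON, where Ccl4 stood at 309, 163, 442 and 497 CPM and Ifng at 145, 61.2, 88.5 and 112 CPM. In FMC_new both rose along the classes, Ccl4 from 275 to 889 CPM and Ifng from 73.1 to 186 CPM. Gzmb had no order in either library, at 95.4, 224, 63.8 and 120.0 CPM in C-ON and at 107, 155, 128 and 91.1 CPM in FMC_new.

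**Figure D3:**
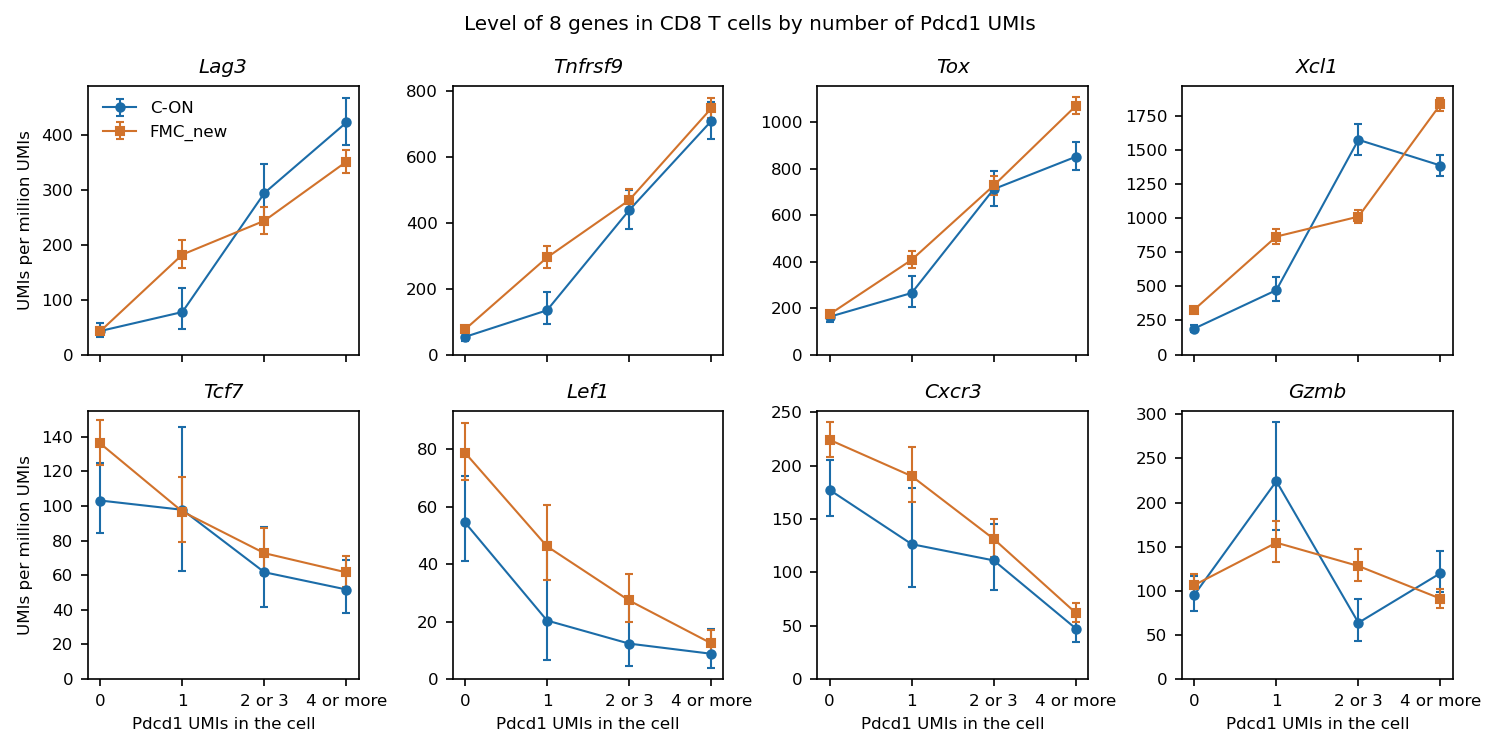
Level of 8 genes (vertical axes, CPM) in CD8 T cells grouped by their number of Pdcd1 UMIs (horizontal axes), for libraries C-ON and FMC_new, with 95% Poisson intervals. Lag3, Tox and Tnfrsf9 stand higher and Lef1 and Cxcr3 lower in classes with more Pdcd1 UMIs in both libraries, while Gzmb has no order.

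Inhibitory receptors were found together in the same cells. The 8 receptors Lag3, Havcr2, Tigit, Ctla4, Cd160, Cd244a, Cd200r1 and Cd101 were counted per cell. All of them are among those called higher in members above, so a gap between the groups follows from that choice. In C-ON 3 or more of them had a UMI in 72.2% of members, and in FMC_new in 69.5%. In Pdcd1-negative CD8 T cells the shares were 11.8% and 16.1%. After thinning every cell to 1000 UMIs the shares were 12.9% and 19.9% against 3.20% and 3.47%, so the gap was there at equal depth as well. Lag3 and Tigit were found together in 59.7% and 51.2% of members, and Tnfrsf9 and Lag3 in 49.7% and 44.6%. These shares also reflect how common each gene was. After thinning, Tigit had a UMI in 55.7% and 56.7% of members with Lag3, against 34.6% and 40.6% of those without. Lag3 likewise had a UMI after thinning in 35.05% and 33.08% of members with Tnfrsf9, against 18.95% and 20.03% of those without. These gaps were not tested. Tcf7 and Havcr2, which mark progenitor and terminal exhausted cells, were rarely found together, in 0.694% and 1.69% of members, compared with 19.4% and 19.4% that had only Tcf7 and 22.9% and 17.3% that had only Havcr2. At these depths a gene without a UMI in a cell may still be expressed there.

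The T cell receptor genes were read from the same libraries, in which a UMI of a variable (V) gene names the segment but not the full receptor. Cells with UMIs of exactly 1 Trbv and 1 Trav gene were used, which held for 97 members in C-ON (33.7%) and 310 in FMC_new (27.7%). In members, 2 cells drawn at random had the same Trbv and Trav pair with a probability of 10.4% in C-ON and 3.29% in FMC_new, at median depths of 4322 and 3727 UMIs. In Pdcd1-negative CD8 T cells this was 0.807% and 0.809%, at median depths of 3435 and 3723.5 UMIs, in Pdcd1-positive conventional CD4 T cells 0.654% and 1.80%, and in Pdcd1-negative ones 0.403% and 0.455%. Pairs were read in 76 and 252 Pdcd1-negative CD8 T cells. In conventional CD4 T cells they were read in only 18 and 96 cells with Pdcd1 and 32 and 128 without. By this probability the members of both libraries were the least diverse of these 4 populations. These are values for each library with no test, a shared pair is not a shared clone, and the 10 mice of a pool cannot be told apart.

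Pairs that recurred were mostly found in members. In C-ON 6 pairs were held by 5 or more CD8 T cells, and at least 80% of the cells were Pdcd1-positive in 5 of them, while over all cells with 1 pair the share was 56.1%. In FMC_new 9 of 19 such pairs reached 80%, with a share of 55.2% over all cells. The pair of Trbv16 and Trav6-5 was held by 27 CD8 T cells of C-ON, of which 26 were members. In FMC_new the pair of Trbv19 and Trav14d-3-dv8 was held by 30 cells with 29 members, and all 23 cells with Trbv4 and Trav7d-3 and all 17 with Trbv2 and Trav14n-3 were members. Other recurrent pairs were mainly Pdcd1-negative: 7 of 22 cells with Trbv19 and Trav13-1 were members, and 1 of 8 with Trbv29 and Trav19.

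**Figure D4:**
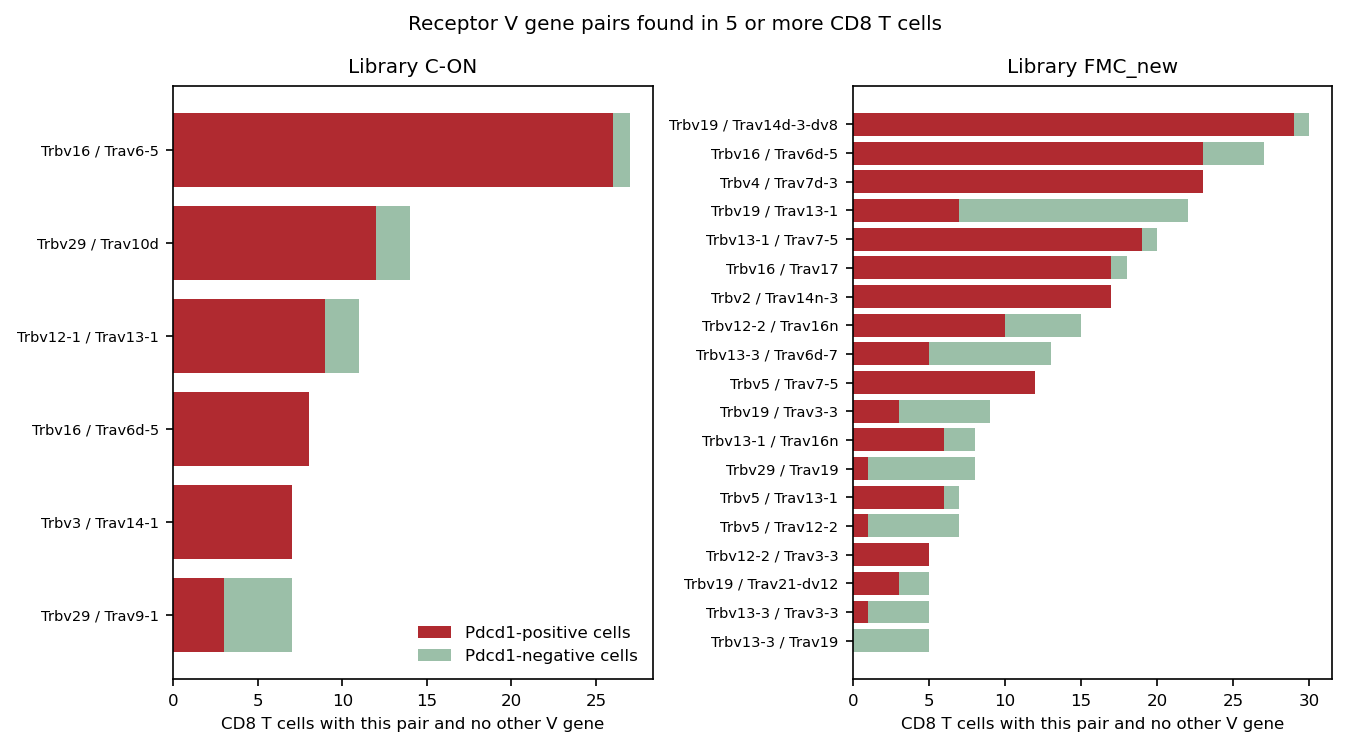
Number of CD8 T cells (horizontal axes) holding each pair of Trbv and Trav genes that was found in 5 or more cells of library C-ON or FMC_new, split into Pdcd1-positive and Pdcd1-negative cells. The pair of Trbv16 and Trav6-5 in C-ON has 26 of 27 cells Pdcd1-positive, and that of Trbv19 and Trav13-1 in FMC_new has 7 of 22.

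Over both libraries Trbv16 was the Trbv gene found in the most members, with 285 (20.2%). Trbv12-2 (226), Trbv19 (173), Trbv13-1 (148) and Trbv3 (110) came next. In FMC_new alone Trbv12-2 was in more members than Trbv16, 187 against 176. Trbv16 had a UMI in 37.8% and 15.7% of members and in 5.91% and 7.01% of Pdcd1-negative CD8 T cells. Trav6-5 and Trav6d-5 are near-identical copies between which reads may be split, so both were counted together. Trbv16 with either of them was found in 71 members of C-ON (24.7%, exact binomial interval 19.8 to 30.1%) and in 102 of FMC_new (9.10%, 7.48 to 10.9%). Among Pdcd1-negative CD8 T cells it was found in 2 (0.909%) and 10 (1.37%), and among conventional CD4 T cells in 0 of 66 and 112 cells of C-ON with and without Pdcd1, which allows up to 4.55% and 2.68%, and in 0 of 311 and 413 of FMC_new, which allows up to 0.965% and 0.726%. The combination was thus seen in the CD8 T cells of both pools. Without the cells that held it, an alternative chosen after seeing the data, 356 genes were called between members and Pdcd1-negative cells, of which 346 were among the 417, and of the named genes Klre1, Gzmm, Nkg7, Il2, Rtp4, Esm1 and Rflnb were no longer called.

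To ask which genes set the members apart from other T cells with Pdcd1, members were compared with the 66 and 311 Pdcd1-positive conventional CD4 T cells, which held Cd4 and neither Cd8 nor Foxp3. Members were higher in natural killer receptors, perforin, Ccl5 and Xcl1, in Tnfrsf9 and in several checkpoint receptors, and lower in CD4 helper genes such as Cd40lg and Il21. Of 11277 genes 595 (5.28%) were called, 280 higher (2.48%) and 315 lower (2.79%) in members, and the median over all genes was 0.02. Of 8 natural killer receptor genes 5 were higher and 0 lower, with a median of 4.91. Klrd1 stood at 485 and 595 CPM in members and at 25.5 and 24.8 CPM in Pdcd1-positive CD4 T cells (log2 fold change 4.48, edgeR adjusted p = 1.63e-13). Gm156 had 2089 UMIs in members and 2 in these CD4 T cells, a ratio of 271 with a counting interval of 75.0 to 2242. Klrc2 had 154 UMIs against 0, at least 13.3-fold higher, and Klra3, Styk1 and Fcrl6 had 63 to 114 UMIs against 0. Eomes, a factor of cytotoxic lymphocytes (5.03), and Cd7 (4.73) were higher too.

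Of 13 cytotoxic genes 4 were higher and 1 lower. The higher ones were Prf1 (4.63), Nkg7 (2.85), the cathepsin Ctsw (1.29) and the granzyme inhibitor Serpinb9 (1.25), and the lower one was the granule proteoglycan Srgn (-0.58). Of 8 chemokines Ccl5 and Xcl1 were higher. Ccl5 stood at 6479 and 6162 CPM in members and at 316 and 617 CPM in Pdcd1-positive CD4 T cells (log2 fold change 3.81, SE 0.38, edgeR adjusted p = 0.00489). Ccl4 stood at 562 and 257 CPM in these CD4 T cells, a range that holds the 431 CPM of members in C-ON, and was not called (log2 fold change 0.58, edgeR adjusted p = 0.882). The checkpoint list was divided, with 7 of 14 higher and 3 lower. Lag3 (0.93), Havcr2 (1.55), Tigit (0.71), Cd160 (3.04), Cd244a (2.23), Cd200r1 (1.39) and Cd96 (1.02) were higher in members, and Btla (-2.63), Ctla4 (-0.90) and Cd200 (-0.71) were lower. DESeq2 called 4 of these 10, without Havcr2, Tigit, Cd244a, Cd200r1, Cd96 and Cd200, and the call of Lag3 was lost in 3 other alternatives. The costimulatory receptors were divided as well, with Tnfrsf9 (2.29), Cd7, Cd27 (0.94) and Cd226 (0.93) higher and Tnfrsf4 (-2.31), Icos (-1.05), Tnfrsf18 (-1.01) and Cd28 (-0.99) lower. The call of Cd27 was kept in only 2 of 10 alternatives. Tox did not pass (log2 fold change 0.45, edgeR adjusted p = 0.608), and Tox2 was lower in members (-1.67).

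Helper genes and cytokines were mostly lower in members. Cd40lg, the ligand by which CD4 cells help antigen-presenting cells, stood at 1.83 and 2.59 CPM in members and at 268 and 189 CPM in CD4 T cells (log2 fold change -6.35, edgeR adjusted p = 2.54e-06). Of 15 cytokines, 6 were lower and 2 higher. Il21 (-5.77), Il10 (-4.19), Tnfsf8 (-3.43), Il2 (-3.04), Tnfsf11 (-2.71) and Lta (-2.08) were lower, and Csf2 (3.53) and Tnfsf10 (0.99) were higher. Of 12 chemokine receptors 6 were lower and 1 higher, with Ccr4 (-3.54), Cxcr5, Ccr8 (-1.17) and Cxcr3 (-0.90) among the lower and Cxcr6 (1.32) the higher. Tcf7 (-1.56) and Lef1 (-1.47) were 2 of the 5 progenitor genes that were lower, of 14. The hormone gene Gh, read only in FMC_new, was called lower (-1.55) and Prl higher (0.82). DESeq2 called neither of these pituitary hormone genes. Whether RNA of other cell types had a part in these calls was not tested.

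To ask whether the accompaniment of Pdcd1 was the same in CD8 and in conventional CD4 T cells, the log2 fold change of Pdcd1-positive against Pdcd1-negative cells was compared between the lineages by an interaction contrast. Lag3, Tnfrsf9, Cd200r1, Tigit and Ctla4 differed more between Pdcd1-positive and Pdcd1-negative CD8 T cells than between the same classes of CD4 T cells. Tcf7 and Lef1 had negative values in CD8 T cells and values above or near 0 in CD4 T cells. The positive classes were unlike in Pdcd1 itself. At least 2 Pdcd1 UMIs were held by 37 of 66 and 158 of 311 Pdcd1-positive CD4 T cells, and by 234 of 288 and 853 of 1121 members. With at least 2 required, Lag3, Cd200r1, Tigit and Ctla4 stayed called and Tnfrsf9 did not. Whether the unlike Pdcd1 counts had a part in the differences between lineages was not tested. In all 41 of 11277 genes (0.364%) were called, 33 with a higher value in CD8 T cells (0.293%) and 8 with a lower one (0.0709%), and 32 had the same sign in both libraries. Lag3 had a log2 fold change of 2.77 in CD8 and 0.64 in CD4 T cells, a difference of 2.13 (SE 0.28, edgeR adjusted p = 6.48e-04). Tnfrsf9 had 3.03 and 0.70, a difference of 2.33 (SE 0.35, edgeR adjusted p = 0.0205). Tcf7 had -0.93 and 0.41, a difference of -1.34 (SE 0.28, edgeR adjusted p = 0.0418). Of 14 checkpoint receptors 4 were called, all higher, with a median difference of 0.79, and DESeq2 called 2, Lag3 and Ctla4. Of 14 progenitor genes 2 were called, both lower, and 0 by DESeq2, while 0 of 13 cytotoxic genes and 0 of 8 chemokines were called by edgeR or DESeq2, with 3 and 0 at an unadjusted p under 0.05 in edgeR's test.

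The levels show where these differences lay. In CD4 T cells Lag3 stood at 134 and 183 CPM with Pdcd1 and at 87.0 and 110 CPM without it, so that Pdcd1-negative CD4 T cells were above Pdcd1-negative CD8 T cells. Tcf7 stood at 176 and 225 CPM in Pdcd1-positive and at 109 and 177 CPM in Pdcd1-negative CD4 T cells. Some calls lay in genes of low level or in genes that other cells of the nerve hold. Dscam differed by 3.19 and Gm19585 by 3.08, with log2 fold changes of -1.94 and -2.63 in CD4 T cells. St18, Pcdh9 and Ptprd were close in level in both classes of CD8 T cells (log2 fold changes 0.11, -0.0016 and 0.02), with values of -1.56, -1.53 and -1.79 in CD4 T cells, and each stood higher in members of C-ON than of FMC_new (199 and 48.6, 892 and 245, 288 and 72.6 CPM), as the oligodendrocyte markers did. Without cycling cells the difference for St18 turned to -0.69. The part of other cells' RNA in these values was not tested. Without a library block none of the 41 was called, with 308 genes at an unadjusted p under 0.05.

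**Figure D5:**
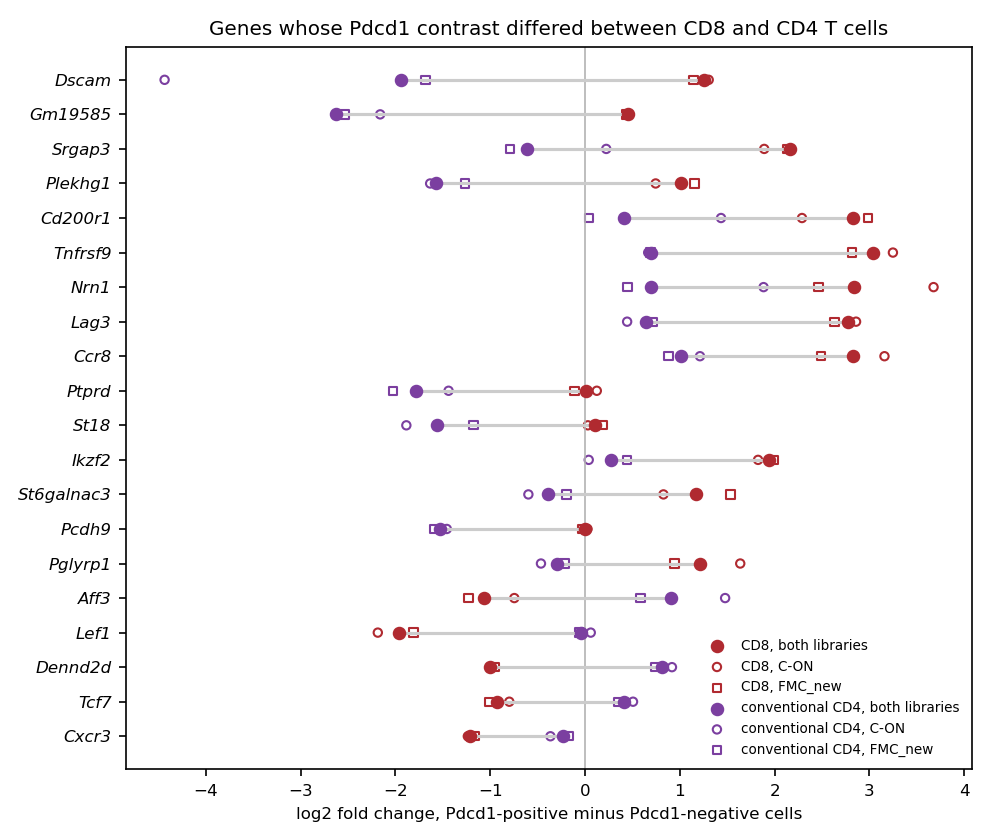
Log2 fold change of Pdcd1-positive against Pdcd1-negative cells in CD8 T cells and in conventional CD4 T cells for the 20 genes named by the size of their called difference between the lineages. Filled points are the fit over both libraries and open points each library. Lag3 has 2.77 in CD8 and 0.64 in CD4 T cells, and Tcf7 has -0.93 and 0.41.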

How the data were processed

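Single-cell RNA of whole optic nerve was measured with the 10x Genomics 5′ kit in 2 libraries. The authors deposited raw UMI counts for each gene and cell barcode from Cell Ranger, 1 matrix a library and not normalized. The submitters' processing notes name version 7.2.0 of Cell Ranger and the mm10 reference, while the study's methods name another version. T cell receptor enrichment libraries, which the labels also name, were not used here.

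Cells were kept with 500 to 5000 genes, 500 to 20000 UMIs and at most 5% mitochondrial UMIs, after the study's methods. Library totals were 85101211 and 129113325 UMIs. The members, the gene lists and the tests were chosen with earlier results of these data known. Counts were summed per library over 6 populations (Pdcd1-positive and Pdcd1-negative CD8 T cells, the same for conventional CD4 T cells, regulatory T cells and natural killer cells), since cells are not replicates. The 12 sums entered 1 fit in edgeR 4.0.16 under R 4.3.3 with TMM scaling, a filter on low counts and library as a block, which left 5 residual degrees of freedom, and p-values were adjusted by Benjamini-Hochberg over all genes tested at 0.05. The block pairs sums of the same library: differences between the libraries in log2(CPM + 1) correlated between all 15 pairs of populations (r 0.342 to 0.706). Fold bounds for genes with 0 UMIs in a group use a floor of 3 UMIs over both libraries. Simulated data were made for the comparison within CD8 T cells (10794 genes). Of genes raised 4-fold 50 of 50 were found, and of those raised 2-fold 20 of 50. Of genes lowered to 0.5 the test found 18 of 50, and of those lowered to 0.25 it found 44 of 50, with 6 false calls. All genes had the same dispersion there, and levels were equal between libraries and, but for the changed genes, between populations. The false calls thus do not measure the error in the real data.

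Named genes are those of the lists, the genes that define the members, Ccl2 to Ccl5, the 5 Trbv genes in the most members, and per test the 15 genes with the largest log2 fold change in each direction among those called with the same sign in both libraries and at least 20 UMIs, without receptor and antibody variable and mitochondrial genes. One gene so chosen is not reported here. Gene coordinates are from the GENCODE annotation of GRCm38, and promoters from RefSeq on GRCm38.p6. Alternatives were DESeq2 1.42.0, no filter on low counts, cells thinned to 1000 UMIs or with at least 2000, at least 2 Pdcd1 UMIs in positive cells, no cycling cells, no cells with RNA of other types, a mitochondrial limit of 10%, only the populations compared, no block, and each library alone. Added after seeing the data was an alternative without cells that held Trbv16 with Trav6-5 or Trav6d-5. Python 3.11.15, numpy 2.4.6, scipy 1.17.1 and pandas 2.3.3 were used for the rest.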

Additional observations from a re-analysis of the deposited data

Results flagged for a closer look

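The difference between Pdcd1-positive and Pdcd1-negative cells itself differed between CD8 and conventional CD4 T cells for 23 named genes, by the interaction contrast in edgeR. The log2 difference of CD8 minus CD4 T cells was positive for 17 genes and negative for 6. Among receptors and factors of T cells it was 2.41 for Cd200r1, 2.33 for Tnfrsf9, 2.13 for Lag3, 1.81 for Ccr8, 1.66 for Ikzf2, 1.08 for Tigit and 1.05 for Ctla4, and it was -1.92 for Lef1, -1.34 for Tcf7 and -0.98 for Cxcr3. Among other genes it was 3.19 for Dscam, 3.08 for Gm19585, 2.78 for Srgap3, 2.59 for Plekhg1, 2.13 for Nrn1, 1.80 for Ptprd, 1.67 for St18, 1.56 for St6galnac3, 1.53 for Pcdh9, 1.51 for Pglyrp1, -1.98 for Aff3, -1.81 for Dennd2d and -1.70 for the hormone gene Gh. In the alternatives other than that without the block, Lag3, Ccr8, Ctla4, Dscam, Gm19585 and St6galnac3 stayed called in each that gave an adjusted p, while Cxcr3, Dennd2d, Nrn1, Ptprd, St18, Tcf7 and Tnfrsf9 were lost in 3 or more.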

How the results depend on the processing

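Between members and Pdcd1-negative CD8 T cells 417 genes were called, and 215 with DESeq2, 643 without the filter on low counts, 267 after thinning to 1000 UMIs per cell, 247 without cycling cells, 1075 with only the populations compared and 53 without the replicate block (library as a block). The share that was higher was 61.9%, and 81.1% without the block. Between members and Pdcd1-positive conventional CD4 T cells 595 were called, and 314 with DESeq2, 895 without the filter, 349 after thinning, 339 without cycling cells and 129 without the block. For the difference between CD8 and CD4 T cells 41 were called, and 22 with DESeq2, 184 without the filter, 76 without cells with RNA of other types, 82 with only the populations compared and 0 without the block. Its share with a higher value was 80.5%, and 90.9% with DESeq2 and 70.0% with at least 2 Pdcd1 UMIs. The other alternatives kept each count within 1.5 times. The cause of these changes was not tested, except that thinning and the removal of cells lowered the number of genes tested. Cells counted as cycling held at least 2 UMIs over 14 cell cycle genes. Without them 129 of 288 members were left in C-ON and 557 of 1121 in FMC_new. Of Pdcd1-negative CD8 T cells 103 of 220 and 376 of 728 were left. The median depths of these members were 3433 and 3232 UMIs, against 4484.5 and 4022 UMIs of all members. Whether calls lost there went with cell division or with fewer and shallower cells was not tested. With 1 library left out there are no residual degrees of freedom among samples, so counts of calls were not made.

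Pdcd1 was found in 59.8% of CD8 T cells, in 34.8% after thinning and in 56.9% without cells of the most frequent receptor pair. With either library alone the share was 56.7% to 60.6%. When 2 Pdcd1 UMIs were needed the share was 53.4%, but CD8 T cells with exactly 1 were then left out of the total as well. Of all 508 and 1849 CD8 T cells in C-ON and FMC_new, 234 and 853 held at least 2 Pdcd1 UMIs. Of named called genes, 44 of 83, 58 of 98 and 6 of 23 in the 3 comparisons lost their call in none of the alternatives with the block that gave them an adjusted p, and 35, 48 and 4 of these were tested in all 10. The rest fell out of some alternatives by the filter on low counts or by DESeq2's own filter. The log2 fold change of Dcn within CD8 T cells was -2.58 in FMC_new and 0.58 in C-ON, that of Klra7 was -0.0077 after thinning, and the difference between lineages for St18 was -0.69 without cycling cells. DESeq2 gave no adjusted p for 11 named genes in the first comparison and 8 in the third. At these depths 2-fold changes were often missed in simulated data, so a gene that was not called may still differ.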
